A study of Homo sapiens with 8 samples.

Results

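The growth period of a genome-wide CRISPR interference (CRISPRi) screen was examined in K562 cells that carried wild-type uL16. K562 is an established human leukemia line with erythroid features and the BCR-ABL1 fusion. The comparison used the 4 wild-type libraries, of 8 in the series, and was chosen by genotype and day alone: 2 replicates at day 9 against 2 at day 0. Single guide RNAs (sgRNAs) entered with a mean count of at least 20 over these 4 libraries, which kept 104709 of the 209070 listed. Most of the rest, 103733, had a count of 0 in all 4 libraries. Of those kept, 102820 target a promoter and 1889 are non-targeting controls.

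All 4 libraries came from K562 cells with dCas9-KRAB that stably express wild-type uL16, a 60S ribosomal protein and the product of RPL10. At both days the cells had been transduced with the library and treated with puromycin (1 µg/ml, 3 days). The label of the later libraries is day 9, and the design text counts 10 doublings of the culture. The labels do not say whether the replicates came from separate transductions, so p-values measure the spread between these libraries, which may be technical.

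In CRISPRi, an sgRNA guides catalytically dead Cas9, fused to the KRAB repressor domain, to the start of a gene, and transcription of that gene drops. A cell whose repressed gene is needed for division leaves fewer descendants, and its sgRNA becomes a smaller share of the pool. A gene whose repression speeds division, or slows loss of cells, gains share. The method reads relative abundance, so fewer cells and less amplified DNA per cell cannot be told apart. Levels are given below as CPM, sgRNA counts scaled to the TMM-adjusted library total, summed over the sgRNAs of a gene's primary promoter, and changes as log2 of day 9 over day 0.

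Because the guides act at promoters, the 250 bases before the annotated start are shown for several genes. DCTN3, CLNS1A and PSMD7 had large falls, that of PSMD7 from few counts as described below, and SPNS1 rose. These sequences are from RefSeq on GRCh38.p14 and run 5′ to 3′ on the strand of the gene. DCTN3 lies at chr9:34620496-34620745 (minus strand), CLNS1A at chr11:77637795-77638044 (minus), PSMD7 at chr16:74296564-74296813 (plus) and SPNS1 at chr16:28974528-28974777 (plus). Capitals mark CCGGAAG on either strand, the core that ETS-family factors are known to bind.
DCTN3: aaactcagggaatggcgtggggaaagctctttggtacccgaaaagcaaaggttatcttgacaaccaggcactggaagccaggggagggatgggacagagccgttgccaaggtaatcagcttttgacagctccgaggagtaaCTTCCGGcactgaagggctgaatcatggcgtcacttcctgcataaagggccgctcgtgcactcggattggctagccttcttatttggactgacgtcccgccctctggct
CLNS1A: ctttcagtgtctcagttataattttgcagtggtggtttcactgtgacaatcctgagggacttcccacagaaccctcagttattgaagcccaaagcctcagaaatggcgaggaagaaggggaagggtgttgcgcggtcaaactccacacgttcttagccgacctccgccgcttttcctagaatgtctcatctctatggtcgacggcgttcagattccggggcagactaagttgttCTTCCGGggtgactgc
PSMD7: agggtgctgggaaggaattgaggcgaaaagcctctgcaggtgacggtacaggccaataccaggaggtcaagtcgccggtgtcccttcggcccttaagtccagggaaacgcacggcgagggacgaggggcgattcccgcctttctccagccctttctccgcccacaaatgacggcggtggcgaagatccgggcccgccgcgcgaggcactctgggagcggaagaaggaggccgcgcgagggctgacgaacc
SPNS1: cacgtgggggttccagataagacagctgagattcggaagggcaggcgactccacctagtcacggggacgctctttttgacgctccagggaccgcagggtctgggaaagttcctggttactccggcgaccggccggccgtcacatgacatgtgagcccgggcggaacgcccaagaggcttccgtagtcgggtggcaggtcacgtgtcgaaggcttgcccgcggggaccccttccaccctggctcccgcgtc
The DCTN3 and CLNS1A stretches hold 1 copy each, and those of PSMD7 and SPNS1 hold none. In the longer windows counted next, which run past the start, PSMD7 has 1 copy.

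The same letters were counted on both strands in windows of 300 bases, from 250 before to 50 after each annotated start. RefSeq gave 21330 windows for 15033 of the tested genes. CCGGAAG was present in 27.2% of the 1666 windows of genes that fell and in 13.0% of the windows of all tested genes. Among the 143 windows of genes that rose it was in 11.9%. AAGATGGCG, which YY1 is known to bind, was in 6.78% of windows of fallen genes and 2.50% of all. GCATGCGC, bound by NRF1, was in 6.36% and 3.73%. TATAAA went the other way, with 4.80% of windows of fallen genes against 9.24% of all. CCAAT was in 38.4% and 34.7%, and GGGCGG in 66.1% and 57.1%. CACGTG was in 11.3% and 8.30%, and TGACGTCA in 3.84% and 2.30%. The mean G and C share was 62.2% for fallen genes and 61.2% for all. These are descriptions without a test. A match of letters is not a site of binding.

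Library totals were 73728319 and 65249002 at day 0 and 47353508 and 49703784 at day 9, with a median of 400 to 627 counts per kept sgRNA. These are PCR reads without molecular identifiers, so depth sets counting error only. All 18905 genes of the library had at least 3 kept sgRNAs at the primary promoter and were tested, 17761 of them with 5. The filter removed 628 sgRNAs with counts. Just outside it, at a mean of 19.75, were 7 sgRNAs (such as 1 of CD44 and 1 of PRIM2), and just inside, at 20, were 7 others (such as 1 of AGO1 and 1 of CCT6A).

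Over the growth period, sgRNAs of 1571 genes (8.31%) fell and those of 116 (0.614%) rose, by edgeR's quasi-likelihood test at an adjusted p under 0.05. Together, 8.92% of genes were called. A fall by over 1 on the log2 scale was seen for 592 genes (3.13%) by edgeR and 589 by DESeq2, both on summed counts. With limma, run on the mean log2 CPM of a gene's single sgRNAs, it was 973. No rise was that large, either at an unadjusted p under 0.05 (edgeR) or by DESeq2 or limma. The day 9 libraries lay below both day 0 libraries for 23.9% of all genes and above both for 22.4%, so libraries that do not overlap are common here. Of the falls, 919 were called in each of the 4 fits that left out 1 library. Of the rises, 9 were. The number of rises was 19 without day 0 replicate 1, 24 without day 0 replicate 2, 597 without day 9 replicate 1 and 524 without day 9 replicate 2. The number of falls in the same order was 1060, 1062, 1927 and 1903.

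Single sgRNAs were set against the non-targeting controls. Of 95834 primary-promoter sgRNAs, 5.13% were called lower, against 0.476% of the non-targeting controls (9 of 1889). Called higher were 0.157% of the targeting sgRNAs, a smaller share than the 0.212% of the controls (4 of 1889). Control sgRNAs had a median log2 change of 0.02 with a standard deviation (SD) of 0.36, and sgRNAs of olfactory receptor genes, not expected to be expressed in this line, a median of 0.04 (SD 0.35). All primary-promoter sgRNAs had a median of -0.01 (SD 0.68). In genes fallen by over 1, which these same sgRNAs define, the median sgRNA was at -2.27. Among the fallen genes, 114 had no sgRNA called on its own and 99 had 5.

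The 20 largest falls came from several basic processes. They were taken among called genes with every sgRNA down and no overlap between days. LSM7, a subunit of the LSm ring on U6 snRNA, had 29.7 and 32.5 CPM at day 0 and 1.54 and 2.13 CPM at day 9. Its log2 change was -4.08 (SE 0.25, n = 2 libraries per day), with an adjusted p of 2.61e-15 in edgeR's quasi-likelihood test. The days were well apart, and each of its 5 sgRNAs lay between -4.40 and -3.47. DCTN3, a subunit of the dynactin complex that helps dynein carry cargo, went from 40.6 and 39.1 CPM to 2.33 and 3.01 CPM. Its change was -3.90 (SE 0.21, edgeR adjusted p = 6.39e-17), again with no overlap between days.

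RIOK2, a kinase of late 40S maturation, had the smallest error among these large falls. It went from 62.7 and 57.1 CPM to 3.87 and 4.52 CPM, a change of -3.83 (SE 0.16). MCM2, a subunit of the replicative helicase, went from 26.8 and 24.4 CPM to 1.70 and 1.49 CPM, at -4.00 (SE 0.29). CYB5B, a cytochrome b5 of the outer mitochondrial membrane, went from 32.3 and 32.1 CPM to 2.35 CPM in both day 9 libraries, at -3.78 (SE 0.24). In RIOK2, MCM2 and CYB5B both day 9 libraries lay below both of day 0.

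PFDN2, a prefoldin subunit that hands unfolded proteins to the chaperonin, had the largest fall, -4.10 (SE 0.27), from 25.2 and 33.4 CPM to 1.89 and 1.52 CPM. The others included CLNS1A, which delivers Sm proteins for snRNP assembly (-3.55, SE 0.23), and FCF1, an early 40S processing factor (-3.69, SE 0.22). CHAF1B, of chromatin assembly factor 1, was at -3.69 (SE 0.32), and CASP8AP2, needed for histone mRNA processing, at -3.62 (SE 0.40). TAF2 of TFIID was at -3.57 (SE 0.23), MED30 of Mediator at -3.55 (SE 0.21) and WDR5 of histone methyltransferase complexes at -3.53 (SE 0.41). NRDE2, a nuclear RNA regulator, was at -3.74 (SE 0.49), AARS, the alanyl-tRNA synthetase, at -3.74 (SE 0.30), and CENPI, an inner kinetochore subunit, at -3.50 (SE 0.25). RPS27A, which encodes ubiquitin fused to a 40S protein, was at -3.50 (SE 0.36) and RPL17 of the 60S subunit at -3.81 (SE 0.54).

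For 2 of the 20 the call rested on few counts. PSMD7, a proteasome lid subunit with 3 sgRNAs, had 4.49 and 7.09 CPM at day 0 and 0.300 and 0.549 CPM at day 9, at -3.75 (SE 0.98, edgeR adjusted p = 0.00703). SF3A2, a U2 snRNP subunit with 4 sgRNAs, had 6.56 and 5.19 CPM and then 0.622 and 0.330 CPM, at -3.63 (SE 0.94, adjusted p = 0.00664). The days did not overlap in either gene, which the choice required. Without day 0 replicate 1 the edgeR adjusted p was 0.241 for PSMD7 and 0.687 for SF3A2, and without day 0 replicate 2 it was 0.789 and 0.361. The remaining 18 were called in all 4 fits that left out a library.

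Among called genes, those with larger changes, in either direction, had lower levels at day 0. The day 0 level is the base of each change and affects which changes pass, so the classes are tied to it. Genes not called had a median of 10.1 CPM per sgRNA at day 0, and those that fell by less than 1 had 9.90 CPM. The 434 genes that fell by 1 to 2 had 8.35 CPM, the 108 that fell by 2 to 3 had 6.47 CPM and the 50 that fell by over 3 had 5.60 CPM. Among rises, the 13 below 0.3 had 13.4 CPM, the 95 from 0.3 to 0.5 had 9.99 CPM and the 8 above 0.5 had 7.48 CPM. The libraries of day 0 were taken from cells that already carried the guides, and abundance before transduction is not part of these files.

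The 51 gene lists below are read against 8.31% of genes lower and a median log2 change of 0.01 over all genes. Lists and members were chosen with earlier results of these data known. A share above that of all genes may partly reflect this choice and is a description, not a test. In the transcription machinery, 11 of 21 subunits of RNA polymerases II and III fell (median -0.45), POLR2H, which all 3 nuclear polymerases share, furthest at -2.10 (SE 0.30). Of 30 general transcription factors, which place polymerase II at promoters, 21 fell. TAF2 aside, their changes ran from -1.08 (TAF6) to 0.06 (GTF2A2), with a list median of -0.55, and 10 of the 21 were called in all 4 fits without 1 library. Elongation factors had 13 of 25 lower (median -0.37), 6 of the 13 in all 4 such fits, led by SUPT5H, part of the DSIF pausing factor, at -3.11 (SE 0.26). Cleavage, polyadenylation and Integrator genes, which form RNA ends, had 19 of 31 lower (median -0.49), 12 of the 19 in all 4, with INTS2 at -3.09 (SE 0.24) and CPSF1 at -3.02 (SE 0.15).

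The Sm and LSm rings, which hold the spliceosomal RNAs, had 12 of 19 subunits lower (median -0.78). Of the subunits shared by the nuclear ring on U6 and the cytoplasmic decay ring, LSM2, LSM4, LSM5, LSM6 and LSM7 fell, LSM6 by 3.36 on the log2 scale (SE 0.26), and LSM3, at -0.31, was not called. LSM4 lost its call without day 0 replicate 1 or 2 (edgeR adjusted p = 0.0988 and 0.0906). LSM1, found in the cytoplasmic ring only, was at 0.16 and not called, and LSM10 and LSM11, of the histone pre-mRNA ring, were at -0.35 and -0.20 and not called. Among Sm proteins, SNRPD1 was at -3.33 (SE 0.26), SNRPB at -3.13 and SNRPF at -3.05. SNRPB was not called without day 0 replicate 2 (edgeR adjusted p = 0.0562).

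The CCT chaperonin, an 8-subunit ring that folds actin and tubulin, had the highest share of any list, with 7 of 8 subunits lower and a median of -1.50. CCT7 was at -2.23 (SE 0.17), CCT2 at -1.86 (SE 0.14), CCT4 at -1.59 (SE 0.18), CCT3 at -1.53 (SE 0.13), CCT6A at -1.46 (SE 0.23) and TCP1 at -0.997 (SE 0.15). CCT5 was at -0.48 (SE 0.13) and lost its call without day 0 replicate 1 (edgeR adjusted p = 0.432). CCT8 was the exception. It had 42.4 and 50.9 CPM at day 0 and 48.0 and 41.2 CPM at day 9, a change of -0.06 (SE 0.12), and its libraries overlapped between days. Of 9 prefoldin and prefoldin-like subunits, 3 fell: PFDN2, VBP1 at -1.41 (SE 0.19) and PDRG1 at -0.78 (SE 0.13). The other 6 ranged from -0.27 (PFDN1) to 0.16 (URI1).

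In the secretory pathway the coats differed in their counts. COPI, the coat of vesicles that return from the Golgi to the ER, had 6 of 11 genes lower (median -1.04), among them COPZ1 at -2.14 (SE 0.17) and the ARF activator GBF1 at -2.01 (SE 0.20). ARCN1, the delta subunit, was at -2.64 and lost its call without day 0 replicate 2 (edgeR adjusted p = 0.0808). COPG1 (0.03) and its paralog COPG2 (-0.06) were not called, nor was COPZ2 (0.11), the paralog of COPZ1. COPII and ER exit genes, which run the outward route, had 3 of 21 lower (median 0.00). They were SEC13 at -1.22, which also serves the nuclear pore, SCFD1 at -0.99, and SEC31B at -1.03, which shares an sgRNA with the complex I gene NDUFB8 (-0.76). The difference between the lists was not tested. The vacuolar ATPase, which acidifies lysosomes, had 6 of 23 lower (median -0.09), such as ATP6V1A at -2.09 (SE 0.14). For the ER translocon and insertion machinery it was 8 of 35 (median -0.10), with SEC61A1 furthest down. For N-glycosylation it was 6 of 38 (median -0.03), 3 of the 6 in all 4 fits without a library, with DDOST, an oligosaccharyltransferase subunit, at -1.68 (SE 0.16).

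Of 29 nuclear pore genes 13 fell (median -0.36), with NUP205, an inner-ring scaffold, at -1.96 (SE 0.19). Transport receptors and Ran had 9 of 28 lower and 1 higher (median -0.19). The importins IPO13 and KPNB1 were at -1.68 (SE 0.14) and -1.51 (SE 0.14). IPO8 was the riser, at 0.36 (SE 0.10), and was not called without day 0 replicate 1 (edgeR adjusted p = 0.415).

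Genes of chromosome segregation had shares well above the 8.31% of all genes. Kinetochore and centromere genes had 20 of 36 lower (median -0.48). CENPI led. Others lower were HJURP (-2.21, SE 0.18), which loads the centromeric histone, and DSN1 (-2.82, SE 0.21) and SPC25 (-2.70, SE 0.25), which link it to microtubules. The spindle checkpoint and chromosomal passenger complex had 9 of 12 lower (median -0.94). AURKB, the kinase of that complex, was at -2.77 (SE 0.24), its partners BIRC5 at -2.64 (SE 0.21) and INCENP at -2.16 (SE 0.28), and the checkpoint kinase TTK at -1.49 (SE 0.14). BUB1 (-0.30), MAD2L1 (-0.08) and MAD1L1 (0.07) were not called.

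Cohesin, which holds sister chromatids, had 9 of 16 lower and 1 higher (median -0.66). ESPL1, the separase that cuts it, had 20.0 and 25.4 CPM at day 0 and 1.68 and 2.33 CPM at day 9, at -3.50 (SE 0.30), with no overlap. SMC3 of the ring was at -1.58 (SE 0.15). PDS5B, a cohesin regulator, was at 0.35 (SE 0.09) with edgeR adjusted p of 0.304 and 0.0948 without day 0 replicates 1 and 2. Condensin, which compacts chromosomes, had 6 of 8 lower (median -0.63). NCAPH of condensin I was at -1.72 (SE 0.15), while NCAPH2 (-0.19) and NCAPD3 (-0.08) of condensin II were not called. NCAPG2, the remaining subunit of condensin II, was at -0.65 and called, but not without day 0 replicate 1 (edgeR adjusted p = 0.105).

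The anaphase-promoting complex, the ubiquitin ligase of mitotic exit, had 11 of 19 lower (median -0.68), with ANAPC4 at -3.04 (SE 0.44) and CDC23 at -2.74 (SE 0.23). CDC20, its mitotic activator, was at -3.45 (SE 0.81) from 7.01 and 6.70 CPM, and was not called without day 0 replicate 1 (edgeR adjusted p = 0.408) or 2 (adjusted p = 0.331). The other activator, FZR1, was at -0.22 and not called. Gamma-tubulin, centrosome and spindle genes had 17 of 30 lower (median -0.54), 10 of the 17 in all 4 fits without a library, with TUBGCP3 at -2.14 (SE 0.21). TUBG1 itself, at -0.74 (SE 0.25), did not pass (adjusted p = 0.0609). Dynein and dynactin had 11 of 22 lower (median -0.36), among them ACTR10 at -2.51 (SE 0.18) and DYNC1I2 at -2.36 (SE 0.18).

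Regulators of the cell cycle had a lower share of falls than this machinery, though that difference was not tested. Of 31 kinases, cyclins and licensing genes, 4 fell (12.9%), with a median of 0.05. That share is near the 8.31% of all genes. CDK1, the mitotic kinase, had 48.1 and 55.5 CPM at day 0 and 24.9 and 32.5 CPM at day 9, a change of -0.85 (SE 0.13), with no overlap and 3 of 5 sgRNAs down. Its inhibitory kinase PKMYT1 was at -0.52 (SE 0.10). WEE1 (-0.49) and CCNA2 (-0.45) were called but not without day 0 replicate 1 (edgeR adjusted p = 0.271 and 0.139), nor CCNA2 without replicate 2 (adjusted p = 0.643). CDK2, CDK4, CDK6 and the D and E cyclins on the list were not called.

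Lists of mitochondrial translation, respiration and import had shares above the 8.31% of all genes. Mitochondrial tRNA synthetases had 13 of 20 lower (median -0.93), with VARS2 at -2.28 (SE 0.15). Factors of mitochondrial DNA, transcription and translation had 22 of 45 lower (median -0.37), among them HSD17B10 and TRMT10C, subunits of the enzyme that matures mitochondrial tRNAs. HSD17B10 went from 62.0 and 64.2 CPM to 6.24 and 5.27 CPM, a change of -3.45 (SE 0.15) with no overlap, and TRMT10C was at -2.75 (SE 0.21). Respiratory complexes II to V had 29 of 58 lower (median -0.37), such as COX16, an assembly factor of complex IV, at -2.18 (SE 0.14). Import and folding genes had 19 of 37 lower (median -0.32), with the protease LONP1 at -2.31 (SE 0.17).

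Iron-sulfur cluster assembly had 16 of 25 genes lower (median -0.56). HSPA9, the mitochondrial Hsp70, was at -1.86 (SE 0.19), and the cysteine desulfurase NFS1 at -0.86 (SE 0.12). Heme and iron supply, a hallmark of erythroid cells, had 2 of 26 lower and 1 higher (median -0.04). None of these 3 calls, ALAD (-0.47), UROD (-0.41) and FTMT (0.36), held in all 4 fits without a library. Without day 0 replicate 1 the edgeR adjusted p was 0.510, 0.0974 and 0.299, without day 0 replicate 2 it was 0.198, 0.0732 and 0.247, and without day 9 replicate 2 it was 0.123, 0.123 and 0.100. UROD was then at -0.24. TFRC, the transferrin receptor, was at -0.27 and not called.

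Among metabolic lists, de novo nucleotide synthesis had 13 of 30 lower (median -0.23). CAD, which starts pyrimidine synthesis, went from 38.5 and 35.8 CPM to 2.67 and 4.81 CPM, a change of -3.31 (SE 0.22), with no overlap. UMPS, later in that pathway, was at -2.06 (SE 0.21), and DHODH, the step between, at -0.40, with edgeR adjusted p of 0.281 and 0.352 without day 0 replicates 1 and 2. IMPDH2 of guanine nucleotide synthesis was at -2.47 (SE 0.23), with IMPDH1 at 0.06 and not called. RRM1, the large subunit of ribonucleotide reductase, was at -2.87 (SE 0.76), with edgeR adjusted p of 0.331 and 0.707 without day 0 replicates 1 and 2.

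Folate and one-carbon genes had 5 of 18 lower (median -0.10), MTHFD1 at -3.11 (SE 0.23) and the mitochondrial SHMT2 at -1.36 (SE 0.11), while cytosolic SHMT1 was at 0.14 and not called. The mevalonate and cholesterol list had 7 of 29 lower (median -0.17), with HMGCS1, an early enzyme of the pathway, at -2.06 (SE 0.14) and the protease MBTPS2 that activates SREBP at -1.86 (SE 0.14). Glycolysis, pentose phosphate and citric acid cycle genes had 15 of 41 lower (median -0.25), 6 of them in all 4 fits without a library. DLD, the dehydrogenase subunit that the 2-oxoacid complexes share, was at -2.80 (SE 0.16) and PGK1 at -1.69 (SE 0.12). Selenoprotein genes had 6 of 19 lower (median -0.03), 3 of the 6 in all 4 fits, and GPX4, the peroxidase of lipid peroxides, was at 0.24 (SE 0.13) and not called.

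In 3 lists no gene fell with TMM scaling. Of 13 polyamine and hypusine genes none was called by edgeR with TMM and 1 was lower with scaling to the control sgRNAs (at an unadjusted p under 0.05 with TMM, 2 were lower and 1 higher), while DESeq2 called 1 lower and 1 higher and limma 2 lower. EIF5A was at -0.38 (edgeR adjusted p = 0.0823). Of 20 Hippo pathway genes none was called by edgeR, DESeq2 or limma, and 1 was higher at an unadjusted p under 0.05. Of 26 p53 and cell death genes none was lower by any of these tools, also at an unadjusted p in edgeR. APAF1, the apoptosome scaffold, was higher at 0.37 (SE 0.11), but not without day 0 replicate 2 (adjusted p = 0.618). DESeq2 called 2 of this list higher and limma 1, and 2 were higher at an unadjusted p in edgeR.

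Protein modifier and tRNA lists were intermediate. NEDD8 and COP9 genes had 9 of 25 lower (median -0.19), 5 of the 9 in all 4 fits without a library, with UBA3, which activates NEDD8, at -1.91 (SE 0.16). SUMO and ubiquitin activation had 9 of 22 lower (median -0.19), again 5 of the 9 in all 4, with SAE1, which activates SUMO, at -2.66 (SE 0.21) and UBA1, which activates ubiquitin, at -1.46 (SE 0.18). Of 47 genes of tRNA modification, splicing and ligation 15 fell (median -0.18), with RTCB, the tRNA ligase, at -2.99 (SE 0.22).

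Chromatin regulators were called less evenly. INO80, SRCAP and NuA4 had 12 of 30 lower (median -0.22), 7 of the 12 in all 4 fits without a library, led by the ATPase RUVBL1 at -2.97 (SE 0.37), which other complexes share. COMPASS and WDR5 complexes had 8 of 25 lower and 1 higher (median -0.20), with KANSL2 at -2.31 (SE 0.32) and MEN1 at -1.26 (SE 0.13). SWI/SNF complexes had 4 of 25 lower (median 0.01), SMARCE1 at -1.35 (SE 0.13) the furthest. Corepressors had 5 of 29 lower and 1 higher (median -0.08), 3 of the 5 in all 4 fits, the demethylase KDM1A at -0.87 (SE 0.15) among them. Polycomb repressive complex 2 had 2 of 13 lower and 1 higher (median -0.02). RBBP4, a histone-binding subunit of several complexes, was at -1.62 (SE 0.14), and LCOR at -0.73, not called without day 0 replicate 2 (edgeR adjusted p = 0.106). The core subunits EZH2 (-0.24), EED (0.01) and SUZ12 (0.01) were not called.

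Histone chaperone and histone mRNA genes had 8 of 23 lower (median -0.20), 5 of the 8 in all 4 fits without a library, CHAF1B, CASP8AP2 and SSRP1 of the FACT complex (-2.06, SE 0.19) furthest. Homologous recombination, Fanconi and checkpoint genes had 13 of 44 lower (median -0.17), 8 of the 13 in all 4. ATR, the kinase of replication stress, went from 66.5 and 60.6 CPM to 15.9 and 20.8 CPM, a change of -1.79 (SE 0.13), with no overlap, and its targets CLSPN and CHEK1 were at -1.20 (SE 0.16) and -0.96 (SE 0.09). BRCA1 (-0.13) and ATM (0.03) were not called. Genes of telomeres, topoisomerases and the SMC complex of DNA repair had 13 of 29 lower (median -0.39), with TOP2A at -1.32 (SE 0.20).

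Lineage regulators and signalling genes had 6 of 36 and 9 of 46 lower, with medians near that of all genes (-0.04 and -0.07). GATA1, the master regulator of erythroid cells, had 30.8 and 30.5 CPM at day 0 and 3.27 and 3.89 CPM at day 9, a change of -3.10 (SE 0.23, edgeR adjusted p = 1.81e-13). The days did not overlap and all 5 sgRNAs were down. KLF1, an erythroid activator, was at -1.66 (SE 0.17), the repressor GFI1B at -1.59 (SE 0.19) and MYB at -0.92 (SE 0.15). ZFPM1, the GATA1 cofactor (-0.73), and LMO2 (-0.63) were called, but ZFPM1 not without day 0 replicate 2 (edgeR adjusted p = 0.060) and LMO2 not without day 0 replicate 1 (adjusted p = 0.0541). TAL1 (-0.07), RUNX1 (0.25) and STAT5B (-0.10) were not called. SPI1, described below, rose.

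BCR, whose promoter drives the BCR-ABL1 fusion, went from 41.6 and 40.3 CPM to 12.6 and 9.58 CPM, a change of -1.88 (SE 0.17) with no overlap. ABL1, whose own promoter is not that of the fusion, was at 0.09 (SE 0.09) and not called. Downstream, the adaptor GAB2 went from 22.3 and 23.6 CPM to 5.37 and 3.84 CPM, a change of -2.32 (SE 0.26). The lipid phosphatase INPPL1 was at -1.41 (SE 0.12), the RAS exchange factor SOS1 at -0.98 (SE 0.15), SHOC2, which aids RAF activation, at -0.94 (SE 0.12), and the phosphatase PTPN1 at -0.92 (SE 0.11). GRB2 (-0.09), NRAS (-0.07) and NF1 (0.10) were not called.

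Genes of the 60S subunit, which uL16 belongs to, were read here in the wild-type background. Of 46 genes of 60S proteins 30 fell (median -0.67), with RPL15 at -3.40 (SE 0.34) and RPL31 at -2.88 (SE 0.33), and 18 of the 30 were called in all 4 fits without a library. Of 19 cytoplasmic maturation factors 9 fell (median -0.37), with the GTPase GTPBP4 at -1.21 (SE 0.15), the anti-association factor EIF6 at -1.14 (SE 0.14) and EFTUD1, which evicts EIF6, at -0.94 (SE 0.10). ZNF574, a zinc finger protein that the series names in its title, had 39.9 and 40.2 CPM at day 0 and 34.6 and 27.4 CPM at day 9. The days did not overlap, but its change of -0.37 (SE 0.13) missed the threshold (edgeR adjusted p = 0.0902). NMD3 (-0.26), ZNF622 (-0.20), DNAJC21 (-0.15) and SBDS (-0.01) were not called.

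RPL10 itself had 30.0 and 32.5 CPM at day 0 and 25.2 and 33.3 CPM at day 9, and these overlapped. Its change was -0.10 (SE 0.15, edgeR adjusted p = 0.825). The 4 sgRNAs did not act alike, with mean log2 changes of -3.25, -1.01, 0.09 and 0.18. The first of these went from 289 and 224 counts to 36 and 8, and was called on its own by edgeR (adjusted p = 0.00299). The summed value of RPL10 thus rests mostly on the 2 more abundant sgRNAs. These cells also express uL16 from a stable construct, whose part in the value of RPL10 was not tested.

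Such splits among guides of 1 gene were seen elsewhere. The 8 called genes with the widest spread had an SD over sgRNAs of 2.20 to 2.39. RPAP1, an RNA polymerase II import factor, had 3 sgRNAs between -4.05 and -3.91 and the others at -0.11 and 0.54, with a summed change of -1.33 (SE 0.17). BNIP1, a SNARE of Golgi-to-ER transport, had sgRNAs at -4.92 and -3.06 and 3 between -0.29 and 0.29, with a summed change of -0.49. GART, of purine synthesis, had a pair at -3.94 and -3.88 and 3 between -0.30 and 0.31, with a summed change of -0.54. In GART the strong guides had 1214 and 890 counts at day 0 in replicate 1, and the others had 255, 1218 and 1130. The pattern was alike in PAK1IP1, TIMM13, XRCC6, ABCB10 and EXOSC3, whose lowest sgRNA lay between -4.70 and -3.85 and highest between -0.05 and 0.74. Several of these calls were lost when a day 0 library was left out. Without day 0 replicate 1 the edgeR adjusted p was 0.122 for BNIP1, 0.171 for XRCC6 and 0.335 for ABCB10, and without day 0 replicate 2 it was 0.355 for BNIP1, 0.0797 for XRCC6, 0.053 for ABCB10, 0.0726 for TIMM13 and 0.245 for EXOSC3. So a small summed fall held guides with changes near those of LSM7, whose sgRNAs lay between -4.40 and -3.47.

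The rises were small. SPI1, which encodes the myeloid factor PU.1, a known antagonist of GATA1, had the largest. It went from 77.9 and 80.4 CPM at day 0 to 121 and 144 CPM at day 9, a change of 0.74 (SE 0.09, edgeR adjusted p = 1.09e-08). The days did not overlap, and its 5 sgRNAs were close together, from 0.57 to 0.81. It was the only gene with 4 sgRNAs called higher on their own.

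Besides SPI1, 8 genes were higher in all 4 fits without a library. BRD1, a chromatin reader of histone acetylation complexes, went from 35.0 and 34.4 CPM to 44.9 and 57.1 CPM (0.56, SE 0.12), NCOA6, a coactivator, from 38.9 and 39.3 to 57.2 and 57.5 CPM (0.55, SE 0.11), and SPNS1, a lysosomal phospholipid transporter, from 35.2 and 34.9 to 51.1 and 53.02 CPM (0.57, SE 0.12). ARRDC3, an arrestin-domain protein, was at 0.49 (SE 0.09) and MTF2, an accessory subunit of Polycomb repressive complex 2, at 0.43 (SE 0.10). In these 5 genes the days did not overlap and all 5 sgRNAs were up. PAN2, a deadenylase (0.39, SE 0.08), TMEM132B (0.59, SE 0.12) and LIPM (0.48, SE 0.10) complete the set and were singled out after their values were seen. TMEM132B and LIPM each had 1 sgRNA down, and LIPM was at 0.31 without day 9 replicate 2 and 0.64 without day 9 replicate 1.

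The remaining genes with the largest rises and every sgRNA up were LRRC41, ZBTB8OS, GPR25, SLC6A16, MAP4K5, TARBP2 and CBX3, from 0.57 to 0.45. Without day 0 replicate 1 the edgeR adjusted p was 0.119 for SLC6A16, 0.0742 for MAP4K5, 0.395 for TARBP2, 0.460 for GPR25 and 0.754 for CBX3. Without day 0 replicate 2 it was 0.151 for LRRC41, 0.294 for ZBTB8OS, 0.169 for GPR25, 0.0818 for SLC6A16, 0.0732 for TARBP2 and 0.0746 for CBX3. Without day 9 replicate 2 it was 0.505 for TARBP2, whose change was then 0.17 (0.69 without day 9 replicate 1), and 0.0783 for GPR25. GPS2, a corepressor subunit at 0.53 (SE 0.10), had 0.0519 without day 0 replicate 2. Of the 116 rises, 78 had no sgRNA called higher and 36 had 1. When libraries were scaled to the control sgRNAs, 72 of the 116 stayed called, and CBX3 did not. Of 366 olfactory receptors 2 fell and 1 rose (OR4B1, at 0.43, named after its value was seen, with edgeR adjusted p of 0.161 and 0.286 without day 0 replicates 1 and 2), against 8.31% and 0.614% of all genes.

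CRISPRi can also touch a gene beside its target. Of all genes, 2167 had sgRNAs within 1 kb of those of another gene, in 1141 pairs, and in 322 pairs the genes shared at least 1 sgRNA, so their values are not separate. The partner of a fallen gene fell in 77.1% of cases where an sgRNA was shared. Where none was shared, it fell in 24.6% of 252 cases, against 13.7% of 1386 partners of genes that did not fall and 7.33% of 16738 genes with no neighbour this close. By distance, the share without a shared sgRNA was 26.7% of 30 cases below 100 bp and 25.2% of 135 from 100 to 300 bp. From 300 to 1000 bp it was 23.0% of 87. Each pair was read in both directions, so the cases are not independent. Pairs were not tested, and whether neighbours differ in other ways was not tested.

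Single pairs next to the largest falls, named after their values were seen, went either way. NIT1, 95 bp from PFDN2 by closest sgRNAs, had 52.99 and 58.4 CPM at day 0 and 55.7 and 54.7 CPM at day 9, a change of -0.01 (SE 0.10), with overlapping days. SPPL2B, 106 bp from LSM7, was at 0.18 and not called, and NKIRAS1, 257 bp from RPL15, at 0.15 and not called. AREL1, 121 bp from FCF1, was at -0.64 and called, but not without day 0 replicate 2 (edgeR adjusted p = 0.164). ATF5 (-1.40) shared an sgRNA with NUP62 (-2.37), and RIBC1 (-1.26) with SMC1A (-2.89), so their values are not separate. In a single pair 1 gene fell and the other rose: RBBP4 went from 57.3 and 60.05 CPM to 16.1 and 22.2 CPM, and its neighbour ZBTB8OS from 33.05 and 26.9 CPM to 42.3 and 45.8 CPM (0.55, SE 0.13). ZBTB8OS was not called without day 0 replicate 2 (edgeR adjusted p = 0.294).

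For 1393 genes the library holds sgRNAs at a second annotated start, and these showed how much the choice of start matters. At the second start 13 genes fell (0.933%) and none rose (0%), by edgeR's quasi-likelihood test, while 84 were higher and 42 lower at an unadjusted p under 0.05. Both starts were called lower in 2 genes, only the primary one in 94, and only the second in 11. P-values were adjusted over the 1393 genes at the second start and over all 18905 at the primary one. The thresholds are therefore unlike, and these counts partly reflect that. Primary and second starts were set apart by the library's own naming, so these shares describe that naming.

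CENPA, which encodes the centromeric histone, showed it most. At the second start it went from 26.3 and 25.9 CPM to 1.54 and 2.06 CPM, a change of -3.85 (SE 0.30, edgeR adjusted p = 1.25e-08). At the primary start it had 135 and 137 CPM and then 150 and 132 CPM, at 0.05 (SE 0.07), and there its 5 sgRNAs have the same counts in every library as those of SLC35F6, so the value at that start is that of both genes and is not separate. The days were far apart at one start of CENPA and overlapped at the other. RCC1, the exchange factor of Ran, was at -1.38 (SE 0.19) at the second start and -0.20 at the primary one, and lost the call at the second start without day 0 replicate 1 (edgeR adjusted p = 0.244). CBFA2T3, an erythroid corepressor, was at -2.29 (SE 0.31) against -0.15, with adjusted p of 0.0894 and 0.165 without day 0 replicates 1 and 2. The 2 genes lower at both starts, PTCD1 and the readthrough gene ATP5J2-PTCD1, overlap each other and count as 1 locus.

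The reverse was called more often, under the unlike thresholds given above. SEC61A1, the channel of the translocon, went from 28.9 and 24.1 CPM to 2.19 and 2.53 CPM at the primary start (-3.49, SE 0.27) and was at 0.12 (SE 0.10) at the second. SF3A2 was at -3.63 against 0.21, the splicing factor USP39 at -2.56 against 0.21, the mitochondrial helicase DHX30 at -2.50 against 0.04 and the translation factor EIF4G2 at -2.31 against -0.05. None of these 5 was called at the second start, and SF3A2 lost its call at the primary one without day 0 replicate 1 or 2 (edgeR adjusted p = 0.687 and 0.361). When sgRNAs of both starts of SF3A2 were pooled, its change was 0.00 and its edgeR adjusted p 0.998.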

How the data were processed

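Genomic DNA of 4 wild-type libraries was sequenced for its sgRNAs. The authors deposited raw counts per sgRNA with no normalization. Per the file headers, reads were trimmed to bases 1 to 39 before counting, and the submitters' processing notes name hg38. The aligner: not given in the sources used here. Start positions in the sgRNA names, whose build is not named, were used for distances only. Of the gene symbols, 17440 were current in RefSeq (GRCh38.p14), 1374 were synonyms and 91 did not match. Of the genes, 655 share an sgRNA with another.

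Counts were summed per gene over primary-promoter sgRNAs (at least 3), scaled by TMM, and edgeR 4.0.16 (R 4.3.3) ran its quasi-likelihood test on these 4 libraries, which leaves 2 residual degrees of freedom. P-values were adjusted over all genes by Benjamini-Hochberg and called under 0.05. Single sgRNAs and second promoters were each fitted alike, with p-values adjusted within their own set. No batch is given in the labels. The code was tested on simulated data.

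Gene lists and members were chosen with earlier results of these data known. Genes named were the 20 largest falls and 12 largest rises with every sgRNA alike and libraries apart, the 4 smallest p of each list, all of lists of up to 14, the 8 widest sgRNA spreads, the 6 largest differences between promoters, and RPL10, ZNF574 and SPI1. Other genes named, mainly those not called, were chosen after their values were seen. Alternatives were control scaling, RLE, DESeq2 1.42.0 and limma 3.58.1, the last on the mean log2 CPM of a gene's sgRNAs. Others were filters on counts, pooled promoters, all 8 libraries, a replicate block and leaving out each library or the most abundant sgRNA. Some genes of these lists are not reported here.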

Additional observations from a re-analysis of the deposited data

How the results depend on the processing

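The main counts were 1571 genes lower and 116 higher. Rises moved most: 72 scaled to the control sgRNAs, 60 with limma and 602 with DESeq2, whose lower count was 1981 and which therefore gave a larger share of rises. A log2 change over 1 left 592 lower and 0 higher (edgeR), against 973 and 0 with limma. RLE size factors, other filters, pooled promoters, no most abundant sgRNA and all 8 libraries kept both counts within 1.5 times. Leaving out 1 library gave 1060 to 1927 genes lower and 19 to 597 higher. For primary-promoter sgRNAs it gave 2975 to 7451 lower and 31 to 1913 higher, for control sgRNAs 3 to 43 lower and 0 to 42 higher, and for second promoters 3 to 22 lower and 0 to 33 higher. In each case leaving out a day 0 library gave the fewest calls and a day 9 library the most; each such fit keeps 1 library of a day, assumed to vary like the other day. SF3A2 changed sign with promoters pooled, to 0.0015.

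Same-numbered libraries did not deviate together (correlation 0.024 over 18905 genes), so the numbers were not taken to pair them. With the replicate block, genes were 1632 lower and 162 higher, primary-promoter sgRNAs 277 higher, control sgRNAs 18 lower and 7 higher, and second-promoter genes 9 lower. With 2 libraries per day and day 9 medians of 400 and 419 counts per sgRNA, small rises are the least certain calls.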
